A study of Homo sapiens with 6 samples.

Results

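The AP-1, EGR1 and MYC early response was followed as 10 genes, taken from the 29483 genes of the table by matching their Ensembl identifiers to a fixed list of symbols. They are the 4 Fos genes (*FOS*, *FOSB*, *FOSL1*, and *FOSL2*), the 3 Jun genes (*JUN*, *JUNB*, and *JUND*), *EGR1*, *IER3*, and *MYC*, and all 10 were found once. RNA was sequenced in 6 libraries of HK-2 cells, an established human line from the epithelium of the renal proximal tubule. All cells had been kept in 25 mM high-glucose (HG) medium for 7 days, the controls included, so that there was no group at normal glucose. The 3 libraries of the case group then came from cells given TEPP-46, an activator of the glycolytic enzyme PKM2, at 10 μM for 1 day, and the 3 libraries of the control group from cells without it. Whether the control cells received a vehicle is not given in the sources used here. The table holds FPKM, in which the count of a gene is divided by the gene's length and by the mapped total of the library, and recovered read totals ran from 17373370 to 18628225 in control libraries and from 15356779 to 16702751 in case libraries. The study describes the replicates as independent and separately treated, and p-values measure the spread between these replicates of 1 cell line. They were bulk libraries, in which a change in the share of cells that express a gene and a change in the RNA per cell cannot be told apart.

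The line was checked against markers of its labelled type. Of 20 proximal tubule and epithelial markers, 18 were in the table and 6 had a mean of at least 0.5 FPKM. Keratins stood highest, with *KRT19* at 352 ± 6.5 FPKM (SD, n = 3) in control libraries and 340 ± 42.4 in case libraries. Apical receptors that define the proximal tubule were almost absent, since *CUBN* did not exceed 0.0508 FPKM in any library and *LRP2* did not exceed 0.00686 FPKM. The values therefore describe a keratin-rich epithelial line with few markers of the mature tubule. *VCAM1*, another gene of the list, was at 0 throughout. In the same list *VIM* and *CDH1* were named after their values were seen. *VIM*, which encodes the filament protein vimentin, moved from 94.8 ± 3.23 FPKM in control libraries to 143.6 ± 22.2 in case libraries. *CDH1*, which encodes E-cadherin, moved from 3.42 ± 0.0811 to 2.05 ± 0.248 FPKM. Both passed the test but lost their calls without any 1 of the control replicates or case replicate 3 (adjusted p up to 0.0883 in limma). The other tested markers of the list did not pass. Their log2 fold changes were -0.27 for *KRT8* (adjusted p = 0.125 in limma), 0.02 for *KRT18* and *KRT19*, and 0.04 for *EPCAM*. Markers of other cell types were at or near 0, as none of the 5 fibroblast or 6 endothelial markers in the table reached a mean of 0.5 FPKM, and the highest, *COL1A1* and *CLDN5*, averaged 0.307 and 0.0701 FPKM in control libraries. Of the leukocyte markers only *CD14* reached it, and it fell from 0.806 ± 0.161 to 0.264 ± 0.029 FPKM, a call lost without control replicate 2 or case replicate 3 (adjusted p up to 0.112), and without control replicate 1 or 3 its mean was below the filter and it was not tested.

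Immediate early genes are transcribed within minutes of a growth factor or a stress signal, without the need for newly made protein, because factors such as SRF with its ternary complex partners and CREB already sit at their promoters and are activated by MAP kinases. Fos and Jun proteins then pair through leucine zippers to form AP-1, which binds DNA in the promoters and enhancers of genes for proteases, cytokines, and cell cycle control, whereas EGR1 is a zinc finger factor and MYC works as a pair with MAX on genes of growth and metabolism. In tubular cells these genes are known as quick responders to injury, and in most settings their peak is transient.

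Promoters of 7 members were matched in a RefSeq table of GRCh38.p14 that spans 250 bases before to 50 bases after each start, and those of *EGR1*, *FOS*, *JUN*, and *FOSL2* are shown up to the start because the first 3 genes rose with TEPP-46 and the last did not pass the test. Capitals mark matches to the CRE core TGACG on either strand, read as CGTCA on the other (bound by CREB and ATF factors), to the TATA box TATAAA, and to the CArG box bound by SRF.
EGR1, chr5:138465229-138465478, plus strand: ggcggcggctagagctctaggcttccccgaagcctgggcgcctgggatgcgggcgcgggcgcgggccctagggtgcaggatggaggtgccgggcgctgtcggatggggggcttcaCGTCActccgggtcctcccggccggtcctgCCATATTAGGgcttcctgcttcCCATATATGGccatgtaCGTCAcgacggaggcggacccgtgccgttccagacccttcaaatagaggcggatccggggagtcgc
FOS, chr14:75278578-75278827, plus strand: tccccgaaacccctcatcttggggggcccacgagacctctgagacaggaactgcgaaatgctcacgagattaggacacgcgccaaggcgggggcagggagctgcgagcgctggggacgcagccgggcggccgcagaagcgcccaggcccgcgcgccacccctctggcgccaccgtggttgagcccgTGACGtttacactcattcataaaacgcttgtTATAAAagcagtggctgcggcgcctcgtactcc
JUN, chr1:58784048-58784297, minus strand: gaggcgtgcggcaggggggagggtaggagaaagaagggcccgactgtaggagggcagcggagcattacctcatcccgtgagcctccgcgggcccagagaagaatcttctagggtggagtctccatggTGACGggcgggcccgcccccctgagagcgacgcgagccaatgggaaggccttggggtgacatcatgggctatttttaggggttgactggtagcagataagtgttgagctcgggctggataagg
FOSL2, chr2:28392608-28392857, plus strand: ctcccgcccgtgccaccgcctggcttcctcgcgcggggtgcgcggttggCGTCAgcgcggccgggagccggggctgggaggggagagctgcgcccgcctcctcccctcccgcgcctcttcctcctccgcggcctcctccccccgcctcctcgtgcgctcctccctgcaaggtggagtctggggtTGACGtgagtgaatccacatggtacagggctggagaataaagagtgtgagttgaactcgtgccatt
The CRE core was found in the windows of all 7 matched members and in 24.6% of the 35116 promoters of the table. The CArG box was found at 2 places in the *EGR1* window, 105 and 83 bases before the start. It was in none of the windows of the other 6 members, against 1.29% of all promoters. For any motif, a site more than 250 bases before a start or more than 50 after it was outside the windows and could not be found. The full CRE (TGACGTCA), which contains this core on both strands, was found only in *JUND* among the 7 members, 200 bases before its start, and in 1.85% of all promoters. The TATA box was found in *FOS*, *JUNB*, and *FOSB* (11.5% of all promoters), and the AP-1 site TGACTCA only in *FOSL2* (4.95% of all promoters), where it begins 4 bases after the start base and so lies past the stretch shown. No window of the 7 members held the EGR site GCGGGGGCG (5.07% of all promoters) or the E-box CACGTG (7.26%). These matches describe letters in the windows, and the FPKM table holds no measurement of factor binding.

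Most of the early response genes were higher with TEPP-46. Of the 10 members, 9 reached the mean of 0.5 FPKM needed for a test, and 6 of these 9 (*EGR1*, *IER3*, *FOSL1*, *JUN*, *FOS*, and *MYC*) were upregulated DE genes at an adjusted p of at most 0.05 in limma, whereas 7.34% of the 13599 tested genes were upregulated. No member was downregulated, and 5.84% of all tested genes were. At an unadjusted p under 0.05, 8 of the 9 were higher and none was lower, against 16.8% and 16.2% of all tested genes. The 3 case libraries lay above the 3 control libraries without overlap for 7 of the 9 tested members, and the share of all tested genes with that pattern was 19.5%. No member had its case libraries wholly below its control libraries, against 20.4% of all tested genes. The members were chosen with earlier results of these data known, so these shares are a description and were not tested. The count of 6 fell to 2 without control replicate 1 and to 1 without control replicate 2 or control replicate 3, and the share of all tested genes upregulated fell likewise, to 0.558%, 0.404%, and 0.5%. Libraries of the case group differed more among themselves than those of the control group, with a median SD over the tested genes of 0.19 and 0.09 on the log2 scale.

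**Figure D1:**
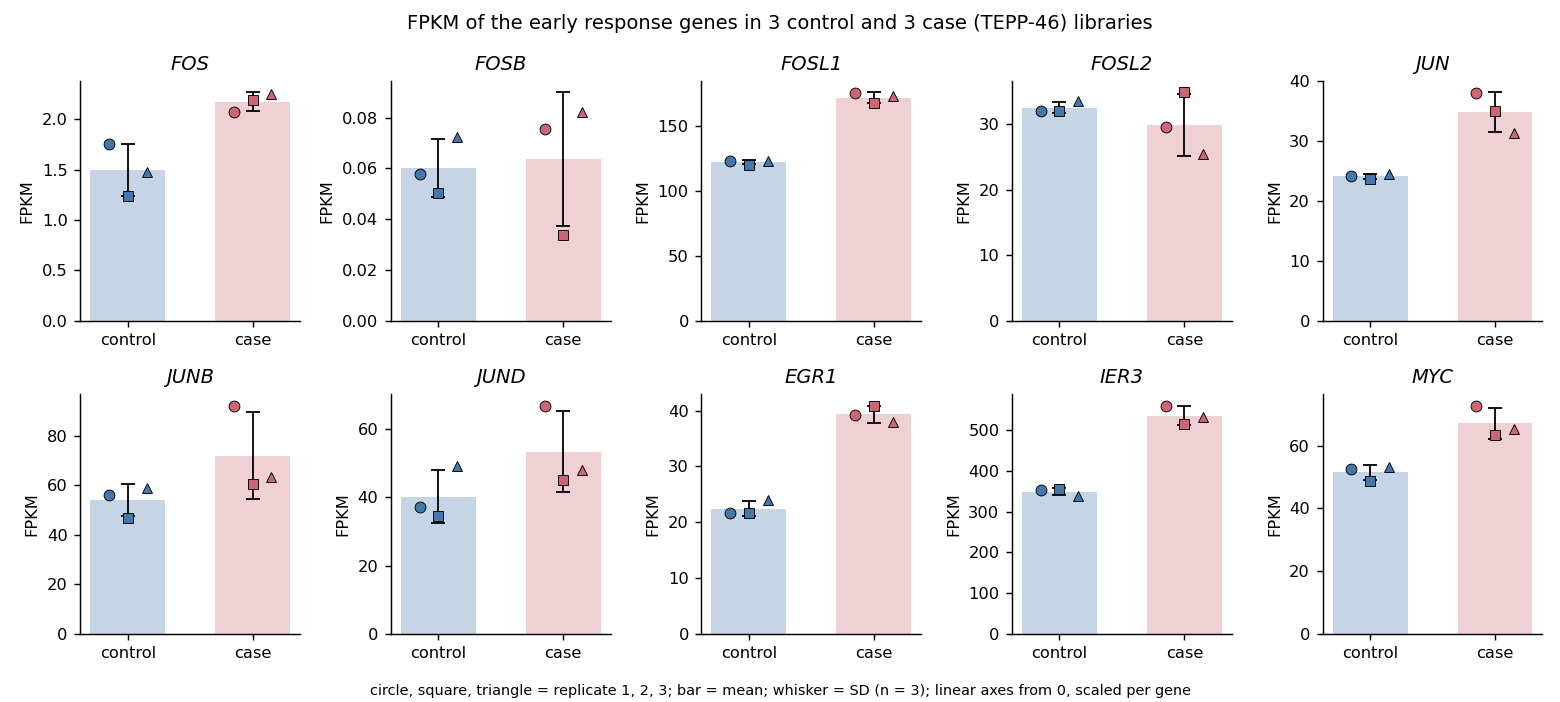
FPKM of the 10 members in each library, with control in blue and case in red, points for libraries, bars for means, and whiskers for the SD of 3 libraries, each gene on its own linear axis from 0. The case points lie wholly above the control points for *FOS*, *FOSL1*, *JUN*, *JUNB*, *EGR1*, *IER3*, and *MYC*, and overlap them for *FOSB*, *FOSL2*, and *JUND*.

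*EGR1* had the strongest evidence of any member. Located on chromosome 5 with 2 exons, it measured 21.6, 21.7, and 24.1 FPKM in control replicates 1, 2, and 3, and 39.2, 40.9, and 37.9 FPKM in case replicates 1, 2, and 3. The groups were far apart relative to their spread, and the lowest case library was above the highest control library by more than the whole range of either group. Expression was 22.5 ± 1.39 FPKM (SD, n = 3) in control libraries and 39.3 ± 1.51 FPKM in case libraries. On the scale of log2(scaled FPKM + 0.1), the fold change was 0.88 with a standard error of 0.08 (95% confidence interval 0.70 to 1.06, adjusted p = 0.00209 in limma), a 1.84-fold rise. It ranked 21st by p among all tested genes, and it was the only member called under all 18 alternatives, with log2 fold changes from 0.68 to 0.93. The other genes of its family were barely detected, since *EGR2*, *EGR3*, and *EGR4* stayed below 0.2 FPKM in every library and were not tested.

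*IER3*, whose product is not a transcription factor but a short-lived regulator of cell survival, was the most abundant member in both groups. It measured 352.4, 355.8, and 338.8 FPKM in the control replicates and 559.9, 514.2, and 531.7 FPKM in the case replicates. All case libraries were well above all control libraries, and the mean moved from 349 ± 9.03 to 535 ± 23.0 FPKM (SD, n = 3). The log2 fold change was 0.69 with a standard error of 0.08 (adjusted p = 0.00706 in limma, with 3 of 3 case libraries higher). The call was lost narrowly without control replicate 2 (adjusted p = 0.0531) and without control replicate 3 (adjusted p = 0.0514). On chromosome 6, exons of *IER3* share 440 bases with *IER3-AS1* and 85 bases with *HCG20*, both on the opposite strand. The strandedness of the libraries is not given in the sources used here, so reads in the shared stretches cannot be assigned to a strand, but *IER3-AS1* was at 0 in 5 of 6 libraries and *HCG20* did not exceed 0.712 FPKM.

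*MYC*, the transcription factor that drives ribosome production and cell growth, rose less. It measured 52.7, 48.9, and 53.2 FPKM in the control replicates and 72.8, 63.3, and 65.3 FPKM in the case replicates. The groups did not overlap, although case replicate 1 stood above the other two. The mean moved from 51.6 ± 2.35 to 67.1 ± 5.03 FPKM (SD, n = 3), with a log2 fold change of 0.45 and a standard error of 0.10 (adjusted p = 0.0245 in limma). When control replicate 1, 2, or 3 or case replicate 3 was left out, the adjusted p was 0.0756 to 0.118 and the call was lost, while the log2 fold change stayed between 0.41 and 0.48. Exons of *MYC* share 194 bases with *CASC11* on the opposite strand, which did not exceed 0.0278 FPKM in any library.

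Among the Fos genes, 2 rose, 1 did not pass the test, and 1 was too low to test. *FOSL1*, which encodes FRA-1, carried most of the family's transcripts in these cells. It measured 123.2, 120.3, and 123.2 FPKM in the control replicates and 175.3, 167.6, and 172.9 FPKM in the case replicates. The libraries were tightly grouped and well separated, at 122 ± 1.69 and 172 ± 3.94 FPKM (SD, n = 3). The log2 fold change was 0.57 with a standard error of 0.07 (adjusted p = 0.00879 in limma). Its log2 fold change stayed within 0.55 to 0.58 without control replicate 1, 2, or 3, but the adjusted p then passed the threshold, at 0.0544, 0.0642, and 0.0584, respectively.

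*FOS*, the founding AP-1 gene, was rare in both groups. It measured 1.76, 1.24, and 1.47 FPKM in the control replicates and 2.07, 2.19, and 2.25 FPKM in the case replicates. Every case library was above every control library, but the values rest on 72 to 106 reads in the control libraries and 112 to 114 in the case libraries, and control replicate 1 lay close to the case group. The mean moved from 1.49 ± 0.258 to 2.17 ± 0.0929 FPKM (SD, n = 3), with a log2 fold change of 0.60 and a standard error of 0.15 (adjusted p = 0.041 in limma). Of the 6 calls this one held in the fewest alternatives, 8 of 18, although the log2 fold change was above 0 in all 18. Without control replicate 1, 2, or 3, or without case replicate 1 or 3, the adjusted p was 0.0536 to 0.152.

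*FOSL2*, which encodes FRA-2, did not move with its relatives. It measured 32.0, 32.0, and 33.5 FPKM in the control replicates and 29.6, 34.8, and 25.4 FPKM in the case replicates. The case libraries spread on both sides of the control libraries, with a log2 fold change of -0.05 and a 95% confidence interval of -0.31 to 0.20 (adjusted p = 0.769 in limma). A rise of the size of *FOSL1* lies outside this interval, although the difference between the genes was not tested. *FOSB* was close to absent, at 0.0337 to 0.0821 FPKM or 3 to 7 reads per library, and was not tested. Its case and control libraries overlapped, and a difference could not be assessed with so few reads.

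The summed FPKM of the Fos family was 156.3 ± 2.44 (SD, n = 3) in control libraries and 204.1 ± 3.22 in case libraries. Within this sum, *FOSL1* held 78.2% ± 0.329 in control libraries and 84.3% ± 2.18 in case libraries, and *FOSL2* held 20.8% ± 0.404 and 14.7% ± 2.2. *FOS* itself held 0.953% and 1.06%, and *FOSB* under 0.1%. Shares of both leading genes did not overlap between the groups, as *FOSL1* took 77.8% to 78.5% in the control libraries and 81.9% to 86.2% in the case libraries. The pool of Fos transcripts was thus mostly *FOSL1* in every library, with the less abundant *FOSL2* at a smaller share in the case libraries.

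**Figure D2:**
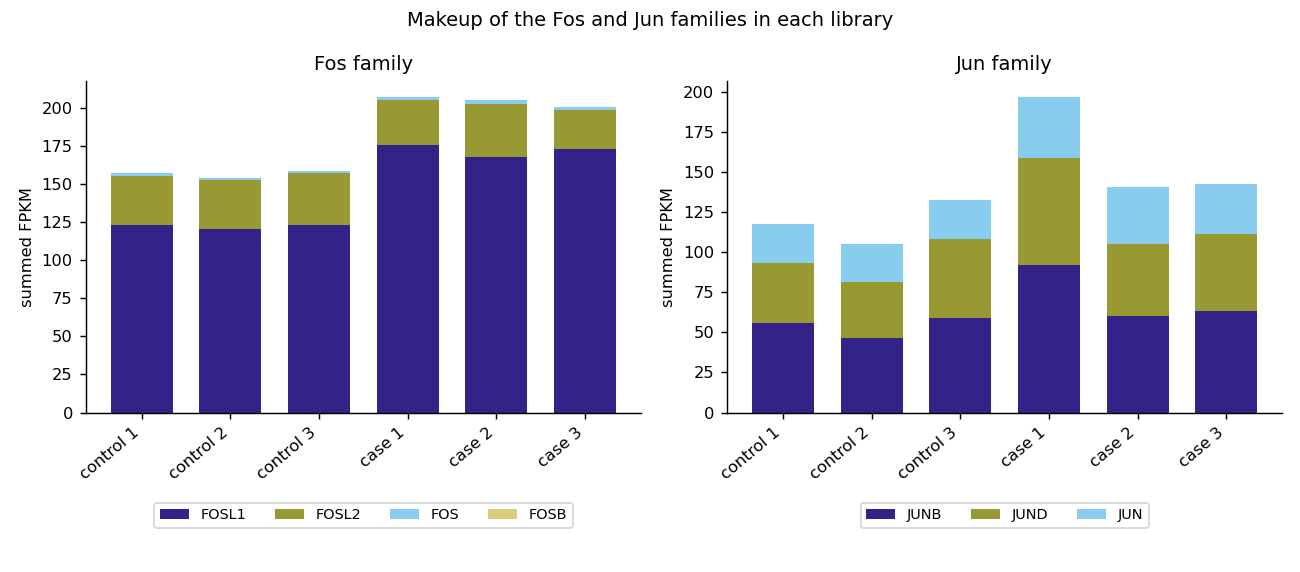
Stacked FPKM of the Fos genes (left) and the Jun genes (right) in each of the 6 libraries. *FOSL1* is the largest block of the Fos family in all 6 libraries and *JUNB* of the Jun family, and the Jun sum of case replicate 1 (197.0 FPKM) stands above all others.

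Among the Jun genes, only *JUN* passed the test. *JUN*, which encodes c-Jun, the main target of the JNK kinases, measured 24.2, 23.7, and 24.5 FPKM in the control replicates and 38.0, 35.1, and 31.4 FPKM in the case replicates. The control libraries were nearly equal, and each case library was clearly above them. The mean moved from 24.1 ± 0.417 to 34.8 ± 3.31 FPKM (SD, n = 3), with a log2 fold change of 0.60 and a standard error of 0.10 (adjusted p = 0.0143 in limma). Without control replicate 1, 2, or 3 the log2 fold change was 0.61, 0.59, and 0.61, and the adjusted p was 0.0697, 0.0782, and 0.0702.

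*JUNB*, which encodes a Jun protein often opposed to c-Jun in cell growth, measured 56.2, 46.8, and 59.1 FPKM in the control replicates and 92.2, 60.3, and 63.3 FPKM in the case replicates. The case libraries were above the control libraries, but only case replicate 1 by a wide margin. The log2 fold change was 0.47 with a standard error of 0.18, and the 95% confidence interval was 0.05 to 0.89 (adjusted p = 0.121 in limma). *JUND*, the Jun gene usually expressed at a steady level, measured 37.1, 34.5, and 49.0 FPKM in the control replicates and 66.8, 45.1, and 48.1 FPKM in the case replicates. Its groups overlapped, because control replicate 3 exceeded case replicates 2 and 3. The log2 fold change was 0.48 with a standard error of 0.19, and the 95% confidence interval was 0.04 to 0.92 (adjusted p = 0.127 in limma). Without case replicate 1 the log2 fold change was 0.25 for *JUNB* (adjusted p = 0.148) and 0.28 for *JUND* (adjusted p = 0.221).

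Both genes consist of 1 exon on chromosome 19 and have unusually GC-rich transcripts, at 64.9% for *JUNB* and 69.9% for *JUND*, whereas the median of the tested genes was 48.7%. The 491 tested genes at 65% to 70% GC, a band that holds *JUND* and begins just above *JUNB*, had a median of 0.25 on the log2 scale relative to the control mean in that library, but -0.14 in case replicate 2 and -0.05 in case replicate 3. *JUNB* stood at 0.91, 0.20, and 0.30 in the same 3 libraries, and *JUND* at 0.88, 0.21, and 0.34. When each library was corrected for GC content, an alternative added once the data were known, the log2 fold change was nearly the same, at 0.48 for *JUNB* (adjusted p = 0.023 in limma) and 0.47 for *JUND* (adjusted p = 0.0199), with smaller standard errors of 0.11 and 0.10. The part of GC content in their high values in case replicate 1 was not tested. By voom on whole reads recovered from the table *JUNB* also passed (adjusted p = 0.0497) and *JUND* did not (adjusted p = 0.0528). The exon of *JUNB* shares 259 bases with *HOOK2* on the opposite strand, a gene at 4.17 to 5.26 FPKM in these libraries.

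**Figure D3:**
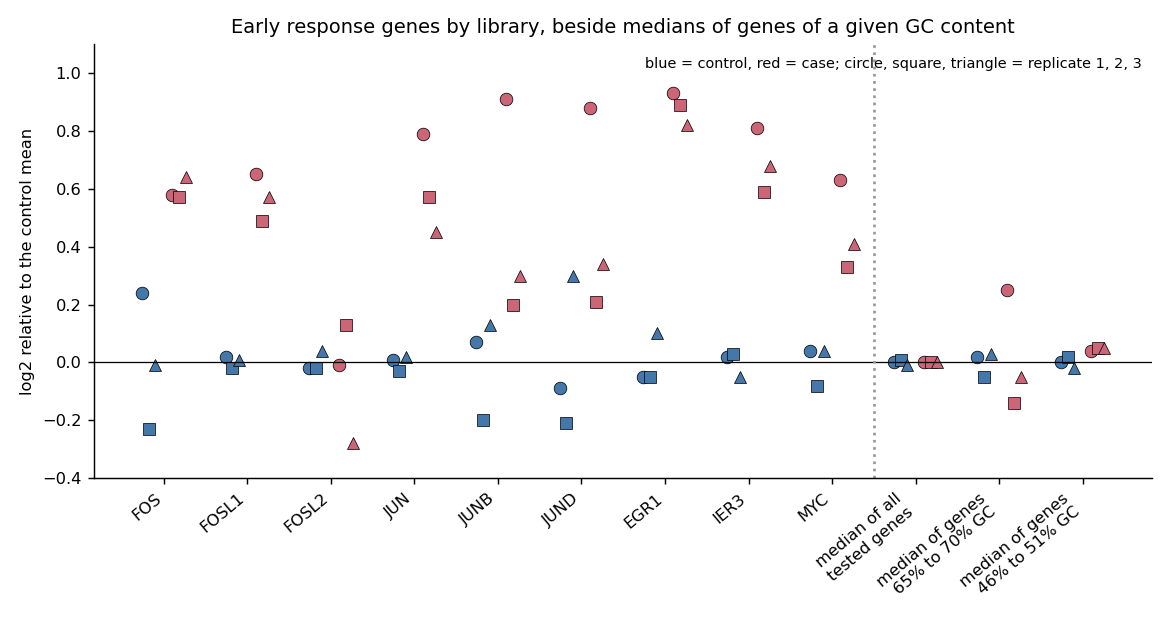
Log2 values of the 9 tested members relative to their control mean in each library (control blue, case red), beside the medians of all tested genes, of those at 65% to 70% GC, and of those at 46% to 51% GC. *EGR1* sits at 0.82 to 0.93 in the 3 case libraries, whereas *JUNB* and *JUND* are near 0.9 only in case replicate 1, where the median of the GC-rich genes is also highest at 0.25.

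The summed FPKM of the Jun family was 118.3 ± 13.8 (SD, n = 3) in control libraries and 160.1 ± 32.0 in case libraries. Its makeup was alike in both groups, with *JUNB* at 45.7% and 44.7% of the sum in the control and case groups, *JUND* at 33.8% and 33.2%, and *JUN* at 20.5% and 22.1%. The ranges of these shares overlapped between the groups for all 3 genes.

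By FPKM, which is scaled to gene length, the order of levels in the control group was *IER3*, *FOSL1*, *JUNB*, *MYC*, *JUND*, *FOSL2*, *JUN*, *EGR1*, *FOS*, and *FOSB*. *JUNB* and *MYC*, *MYC* and *JUND*, and *JUN* and *EGR1* were neighbours whose libraries overlapped. In the case group the first 5 and the last 2 genes held their places, and *EGR1* came sixth, before *JUN* and *FOSL2*, although the libraries of *EGR1* and *JUN*, and those of *JUN* and *FOSL2*, overlapped, as did those of *JUNB* and *MYC* and of *MYC* and *JUND*. Thus *EGR1* was the lowest of these 3 genes in the control group at 22.5 FPKM and the highest in the case group at 39.3 FPKM.

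**Figure D4:**
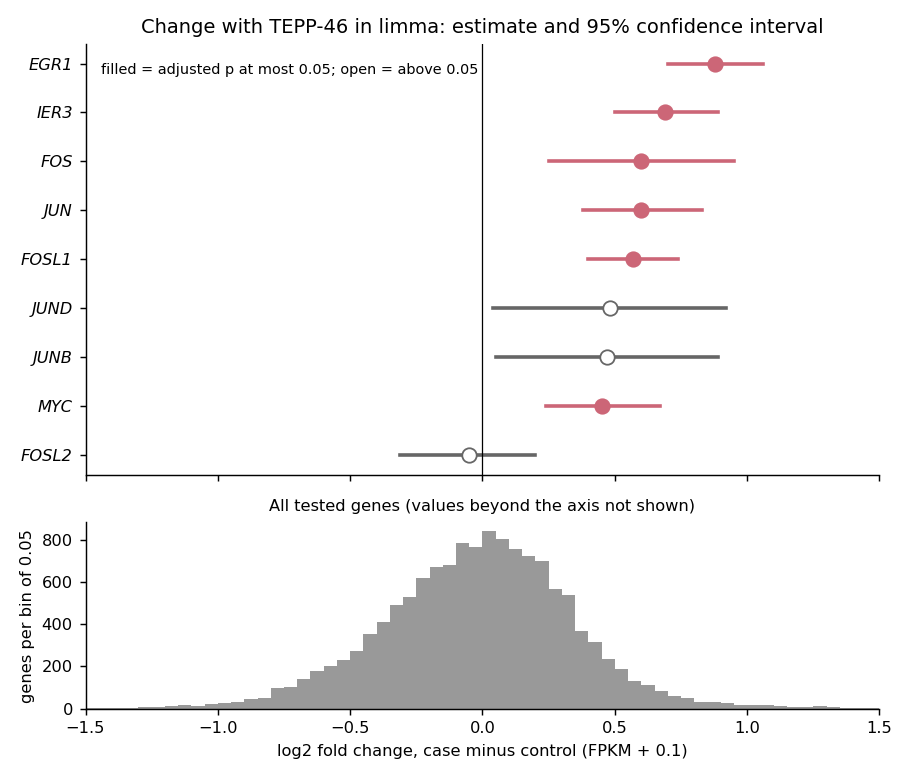
Upper panel, the limma log2 fold change (case minus control) of the 9 tested members with its 95% confidence interval, filled where the adjusted p was at most 0.05, and lower panel, the distribution of log2 fold changes of all tested genes. The estimates run from 0.45 (*MYC*) to 0.88 (*EGR1*) except for *FOSL2* at -0.05, and the distribution of all genes is centred on 0.

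The genes around these factors were examined through 7 lists with 116 tested genes in all, of which 27 (23.3%) were upregulated and 3 (2.59%) downregulated, with a median log2 fold change of 0.09 beside 7.34%, 5.84%, and 0.00 over all tested genes. The upregulated count was 5, 6, 7, and 8 without control replicate 2, control replicate 1, control replicate 3, and case replicate 3, respectively. The share of all tested genes upregulated fell likewise, to 0.404%, 0.558%, 0.5%, and 0.89% in the same order. The lists, too, were chosen with earlier results of these data known, and their shares were not tested. On the TPM scale, on which the median of all genes shifted by -0.19, 11 were upregulated and 15 downregulated, where 2.82% and 17.6% of all tested genes were.

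Partners that pair with Fos or Jun proteins or bind neighbouring sites contributed 3 upregulated genes of 9 tested and none downregulated. These counts stand beside 7.34% and 5.84% of all tested genes, and the median log2 fold change was 0.34. Without any 1 of the control replicates the upregulated count was 1, where 0.404% to 0.558% of all tested genes were upregulated. *ATF3*, a stress-induced bZIP factor, measured 5.98, 6.26, and 5.77 FPKM in the control replicates and 9.39, 9.66, and 9.62 FPKM in the case replicates. The case and control libraries were clearly separate, the log2 fold change was 0.74 with a standard error of 0.08 (adjusted p = 0.00495 in limma), and the call held without any 1 library. The small Maf genes *MAFF* (log2 fold change 0.76, adjusted p = 0.0153) and *MAFG* (0.51, adjusted p = 0.0143), whose products pair with bZIP factors including NRF2, also rose. Another small Maf gene, *MAFK*, named after its values were seen, did not pass the test (-0.05, adjusted p = 0.827). *MAFF* lost its call without any 1 of the control replicates or case replicate 3 (adjusted p up to 0.0797), and *MAFG* without any 1 of the control replicates (up to 0.0794). *MAFG* was the most abundant gene of the list, at 25.5 ± 0.296 FPKM (SD, n = 3) in control libraries and 34.4 ± 2.38 in case libraries.

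The other immediate early genes gave 12 upregulated genes and 1 downregulated gene among 35 tested, beside 7.34% and 5.84% of all tested genes. The median log2 fold change of this list was 0.29. *BTG1*, an antiproliferative gene, moved from 7.16 ± 0.319 to 13.7 ± 0.66 FPKM (SD, n = 3), a log2 fold change of 1.00 (adjusted p = 0.00197 in limma). *IER2* (0.88, adjusted p = 0.0101), the kinase gene *PLK3* (0.78, adjusted p = 0.00477), and the matrix-associated *CCN2* (0.75, adjusted p = 0.0078) and *PHLDA1* (0.48, adjusted p = 0.015), a gene of the pleckstrin homology-like family, rose by smaller amounts. *CCN1*, a YAP target, moved from 176.05 ± 8.95 to 215.6 ± 8.52 FPKM (0.37, adjusted p = 0.0233). It was the most abundant of the list by mean over both groups. *MCL1*, named after its values were seen, was higher than *CCN1* in the control group (180.3 FPKM) and lower in the case group (192.8 FPKM). Calls of *BTG1*, *PLK3*, and *CCN2* held without any 1 library, that of *IER2* was lost without control replicate 1 or 2 (adjusted p up to 0.06), and those of *PHLDA1* and *CCN1* without any 1 of the control replicates or case replicate 3 (up to 0.0866 and 0.124). The other 6 upregulated genes, named here after their values were seen, were *KLF4*, *DUSP1*, *HBEGF*, *NAB2*, *TIPARP*, and *CSRNP1*, with log2 fold changes from 0.40 to 0.56. All 6 lost their calls without any 1 of the control replicates or case replicate 3 (adjusted p up to 0.147). The upregulated count of the list was then 3 or 4, where 0.404% to 0.89% of all tested genes were upregulated. This count was also 4 on the TPM scale, where 2.82% of all tested genes were upregulated.

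The orphan nuclear receptor *NR4A2* went the other way. It measured 2.43, 3.21, and 3.26 FPKM in the control replicates and 1.18, 1.02, and 1.43 FPKM in the case replicates. Every case library was well below every control library, and the log2 fold change was -1.16 with a standard error of 0.18 (adjusted p = 0.0127 in limma). The call was lost without control replicate 2 or control replicate 3 (adjusted p up to 0.0713). Its relatives *NR4A1* (log2 fold change -0.40, adjusted p = 0.0556) and *NR4A3* (-0.27, adjusted p = 0.278), named after their values were seen, did not pass the test, although *NR4A1* did when case replicate 2 was left out (adjusted p = 0.0479) and on the unscaled, TPM, and GC-corrected values. *EGR2*, *EGR3*, *EGR4*, and *PTGS2* were below the filter, and *NPAS4* was not matched in the table.

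Of 8 SRF, ternary complex, and CREB pathway genes, which induce early genes, none was upregulated and 1 was downregulated, with a median log2 fold change of 0.01. Counts this small are near what 7.34% and 5.84% of all tested genes give. That gene was *MRTFB*, a coactivator of SRF, which moved from 1.84 ± 0.0742 to 0.969 ± 0.353 FPKM (SD, n = 3; log2 fold change -0.84, adjusted p = 0.0435 in limma) and lost its call when any 1 library other than case replicate 2 was left out (adjusted p up to 0.149). The most abundant, *CRTC2*, had a log2 fold change of 0.19 (adjusted p = 0.1), and of -0.01 on the TPM scale. Of 16 tested MAP kinase genes, 1 (6.25%) was upregulated and none downregulated, again near the share of all tested genes, with a median of -0.07. *MAP2K3*, which activates p38 kinases, moved from 31.0 ± 1.05 to 38.5 ± 2.67 FPKM (0.39, adjusted p = 0.0323), and lost its call without any 1 of the control replicates or case replicate 3 (up to 0.134). The most abundant of these, *RPS6KA4*, had a log2 fold change of -0.17 (adjusted p = 0.431). It was -0.34 without case replicate 1, where it passed the test (adjusted p = 0.0222), -0.10 without case replicate 2, and -0.07 without case replicate 3.

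Genes of the MAX network, the partners and antagonists of MYC, had 0 calls in either direction among 11 tested in limma, near what the shares of all tested genes give, with a median log2 fold change of -0.21. At an unadjusted p under 0.05, 2 were higher and 3 lower, and by voom 1 was upregulated and 3 downregulated, beside 9.58% and 11.1% of all genes in that test. When case replicate 1 or case replicate 2 was left out, 1 and 2 were downregulated, respectively, beside 7.86% and 12.4% of all tested genes. The most abundant was *MLX*, at 23.0 ± 0.303 and 24.2 ± 0.659 FPKM (SD, n = 3; log2 fold change 0.15, adjusted p = 0.208 in limma). Of 23 tested MYC target genes, 4 (17.4%) were upregulated and none downregulated, beside 7.34% and 5.84% of all tested genes, with a median of 0.07. By unadjusted p under 0.05, 6 of these targets were higher and 4 lower, beside 16.8% and 16.2% of all tested genes. On unscaled FPKM 2 were upregulated and 2 downregulated, beside 4.87% and 8.27% of all tested genes, and on TPM 1 and 6, beside 2.82% and 17.6%. *ODC1*, the rate-limiting enzyme of polyamine synthesis, measured 134.75, 138.5, and 137.5 FPKM in the control replicates and 199.4, 198.2, and 204.5 FPKM in the case replicates. The groups were far apart, and the log2 fold change was 0.63 with a standard error of 0.07 (adjusted p = 0.00544), with the call lost only without control replicate 2 (adjusted p = 0.0508). *LDHA* (0.34, adjusted p = 0.0227), which encodes a lactate dehydrogenase subunit, and the nucleolar genes *NOP56* (0.35, adjusted p = 0.0425) and *NOP16* (0.49, adjusted p = 0.0441) rose as well, but each lost its call without any 1 of the control replicates or case replicate 3 (up to 0.16), and *NOP16* also without case replicate 1. The most abundant target, *NPM1*, was higher by 0.28 without passing (adjusted p = 0.086), and passed when case replicate 1 was left out (adjusted p = 0.0358).

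Of 14 tested AP-1 target genes, 7 were upregulated and 1 was downregulated, beside 7.34% and 5.84% of all tested genes. The median log2 fold change was 0.29. On TPM 3 were upregulated and 1 downregulated, beside 2.82% and 17.6% of all tested genes. *MMP1*, the interstitial collagenase and a classical AP-1 target, measured 4.36, 3.68, and 4.59 FPKM in the control replicates and 8.69, 9.49, and 9.71 FPKM in the case replicates. The lowest case library was well above the highest control library, and the log2 fold change was 1.20 with a standard error of 0.10 (adjusted p = 0.00197 in limma), a call that held without any 1 library. *CXCL8*, which encodes interleukin 8 and was the most abundant of the list, moved from 243.7 ± 20.1 to 347.5 ± 32.9 FPKM (SD, n = 3; 0.59, adjusted p = 0.014). The urokinase gene *PLAU* moved from 192.8 ± 0.218 to 251.3 ± 12.4 FPKM (0.46, adjusted p = 0.0171), its receptor gene *PLAUR* by 0.38 (adjusted p = 0.0325), and the protease inhibitor gene *TIMP1* by 0.37 (adjusted p = 0.0432). *EDN1* (0.50, adjusted p = 0.0497) and *VEGFA* (0.33, adjusted p = 0.048), named after their values were seen, passed narrowly, and of the settings that leave out 1 library *EDN1* held only without case replicate 2 (adjusted p = 0.0204) and *VEGFA* in none (up to 0.188). *CCND1*, which encodes cyclin D1, fell from 44.5 ± 0.96 to 31.0 ± 3.48 FPKM (-0.45, adjusted p = 0.0193). Without any 1 of the control replicates or case replicate 3, *MMP1* was the only upregulated gene of this list and *CCND1* was not called. In these settings 0.404% to 0.89% of all tested genes were upregulated. Without case replicate 1 *TIMP1* also missed the threshold (adjusted p = 0.0503).

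**Figure D5:**
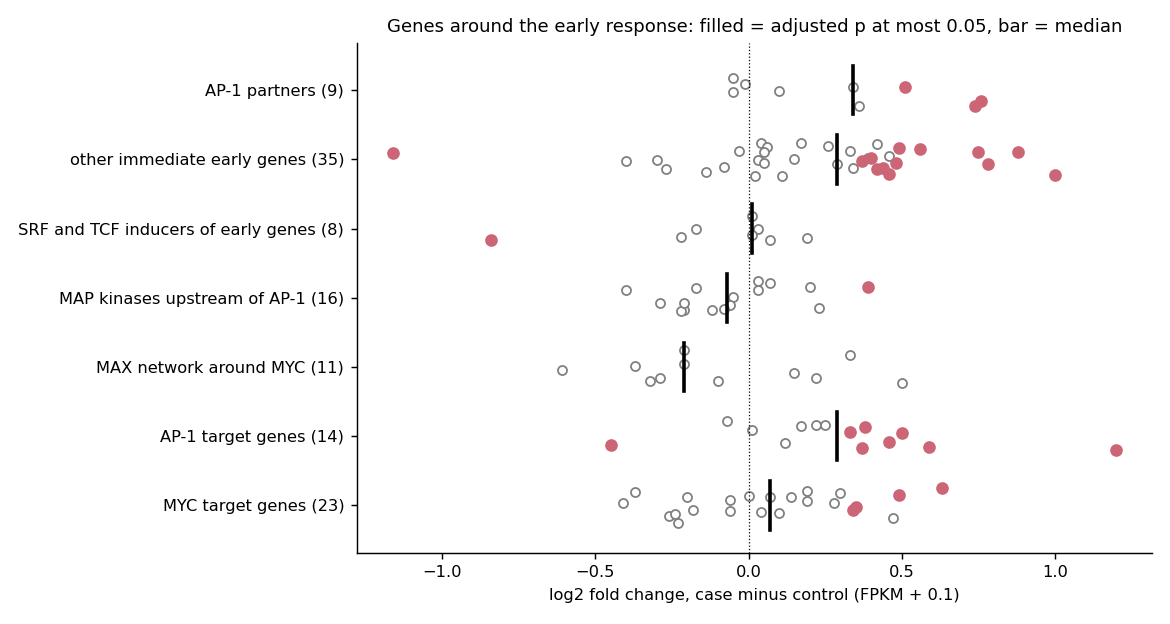
Limma log2 fold changes (case minus control) of the tested genes in the 7 lists, with the number tested in parentheses, filled points for genes at an adjusted p of at most 0.05, and a bar for each median. Filled points lie mostly to the right in the lists of AP-1 partners, other immediate early genes, and AP-1 target genes, and the medians of the MAP kinases (-0.07) and the MAX network (-0.21) lie below 0.

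The 3 tested genes whose pattern over the 6 libraries was nearest to that of *EGR1*, by Euclidean distance between log2 values relative to the control mean, were *MSC* (distance 0.16), *LAMB3* (0.18), and the unnamed gene ENSG00000272196 (0.21). *LAMB3*, which encodes a laminin chain, measured 136.6, 137.1, and 134.6 FPKM in the control replicates and 251.6, 237.9, and 225.5 FPKM in the case replicates. *MSC*, a bHLH factor whose call was lost without any 1 of the control replicates or case replicate 3 (adjusted p up to 0.0773), ran from 1.09 to 1.20 FPKM in control libraries and from 1.85 to 2.09 in case libraries. The distance is a description over 6 libraries of 2 groups.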

How the data were processed

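The authors filtered the reads, aligned them to GRCh38.p13 with HISAT2 2.1.0, counted them on genes with HTSeq 0.6.0, and deposited FPKM of 29483 genes in 3 control and 3 case libraries. The FPKM sums ran from 289244.5 to 323755.0 per library. RNA selection, strandedness, and the gene annotation are not given in the sources used here. Symbols, exons, and GC content came from a GENCODE annotation of GRCh38 and promoters from RefSeq.

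In R 4.3.3, FPKM were divided by median-of-ratios factors (0.9437 to 1.036), 0.1 was added, and log2 values of genes with a mean of at least 0.5 FPKM were tested by limma 3.58.1 with an intensity trend and no covariate. Adjusted p-values follow Benjamini-Hochberg over all 13599 tested genes, at a threshold of 0.05, and every adjusted p in the report is from limma. Fold changes on this scale understate changes of low genes. Whole reads were recovered from the FPKM steps for 99.75% of tested genes, with a tolerance of 0.01 reads, and were used in voom and for read totals. A read number alone gives counting error only, whereas voom also takes in the spread between replicates. The sources used here do not mention molecular identifiers. Correlation of same-numbered libraries, alternative scalings, pseudocounts, filters, variance models, GC correction (added later), and leaving out each library were tried. The procedure was tested on simulated data.

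Members and gene lists were chosen with earlier results of these data known. Within each list the text names up to 5 called genes per direction with the smallest p and the most abundant gene, and says where others were chosen after their values were seen. For *EGR1*, the member with the smallest p, the 3 nearest patterns are named.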

Additional observations from a re-analysis of the deposited data

How the results depend on the processing

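The count of members upregulated (6, with 0 downregulated) was 4 with no filter on low values or without the intensity trend, 5 on unscaled FPKM or TPM, 7 by voom on recovered reads, and 8 with GC correction, and 1 to 6 when 1 library was left out. Over all genes, 998 upregulated and 794 downregulated became 662 and 1124 on unscaled FPKM, 383 and 2387 on TPM, 329 and 191 with no filter, 436 and 416 without the trend, 1300 and 1509 by voom, and 1840 and 1554 with GC correction. Leaving out 1 library gave 55 (without control replicate 2) to 1813 (without case replicate 2) upregulated and 14 to 1682 downregulated genes, and the cause was not tested. Unscaled FPKM shifted the median log2 fold change of all genes by -0.08 and TPM by -0.19. The early gene lists went from 27 upregulated and 3 downregulated to 11 and 15 on TPM, to 22 and 7 on unscaled FPKM, to 39 and 9 with GC correction, and to 5 to 34 upregulated and 0 to 9 downregulated without 1 library. The Fos sum, 1.31 times higher in the case group, was 1.38 times higher after median-of-ratios scaling and 1.2 times on TPM. Directions reversed for *FOSL2* (0.06 without case replicate 3, range -0.15 to 0.06 without 1 library), and on TPM for *CRTC2* (-0.01) and *MLX* (-0.05), and none of these passed a test. With the replicate number as a block, 848 genes were upregulated and 762 downregulated, and 5 members were upregulated, as *FOS* had an adjusted p of 0.0535. Same-numbered deviations correlated at 0.063, 0.1, and -0.053, and differently numbered ones at -0.182 to 0.117. With 3 libraries per group these values cannot decide whether the numbers pair the libraries. *FOSB* had 3 to 7 reads per library and was not tested.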

Other observations

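In the MAX network, the MYC partner *MAX* measured 9.75, 9.34, and 10.4 FPKM in the control replicates and 11.7, 10.1, and 11.0 FPKM in the case replicates, with overlapping groups (0.22, adjusted p = 0.165 in limma). The MYC antagonist *MXD1* had the highest log2 fold change of this list (0.50, adjusted p = 0.0884) and *MGA*, another MAX partner, the lowest (-0.61, adjusted p = 0.13), and neither passed the test, but *MGA* did when case replicate 2 was left out (-0.83, adjusted p = 0.0418), and it was at -0.33 without case replicate 1 (adjusted p = 0.173). These genes were picked with their values known.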
